A study of Mus musculus with 20 samples.

Results

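Genes of the outer hair cell and its efferent synapse, 7 of the 24411 in the expression tables, were followed in the apical coil of the cochlea of mice with an altered *Bai1* (*Adgrb1*) gene. The members were fixed by name, with earlier results of these data known: *Slc26a5*, *Ocm*, *Chrna9*, *Chrna10*, *Rapsn*, *Lmod3* and *Sri*. The Bai1tm2b/tm2b mice, labelled Homo, carried on both chromosomes an allele in which exons 3 and 4 are deleted and a lacZ cassette with a splice acceptor is left behind, which removes the long isoform and leaves a short one. Their controls were heterozygous littermates, Bai1tm2b/+, labelled Het, which also carried 1 copy of the tm2b allele, so no library came from a mouse with 2 intact alleles. All mice were on the C57BL/6N background, and each library was made from dissected sensory epithelium and spiral ganglion pooled from 4 mice at postnatal day 7 (P7) or 22 (P22). The sexes of the pooled mice are not given in the labels.

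Outer hair cells amplify sound in the cochlea by changing their length with voltage, through the motor protein prestin. They are innervated by cholinergic efferent fibres from the brainstem, whose acetylcholine opens a nicotinic receptor assembled from α9 and α10 subunits. Calcium that enters through this receptor opens a potassium channel nearby and hyperpolarizes the cell, which damps the amplification.

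The libraries fell into 3 sets. At P22 there were 3 libraries of each genotype in counts. At P7 there were 3 of each genotype in counts (replicates 5 to 7) and, from a separate dissection batch and run, 4 of each as TPM, a unit scaled by transcript length and depth, rounded to whole numbers (rounded TPM, replicates 1 to 4). The 12 libraries in counts held 31108542 to 58807162 counts in all. Counts are printed as CPM, which scales each library to a common total after TMM normalization. A gene was called where the adjusted p was under 0.05, the log2 fold change beyond 0.5 in size and its standard error under 0.5. In the edgeR fits the standard error (SE) was derived from the test. It is the size of the log2 fold change over the square root of the F statistic. *Adgrb1* itself, counted over both isoforms, was lower by a log2 fold change of -0.61 at P22 (SE 0.0585, edgeR's quasi-likelihood test, adjusted p = 0.000602). In the P7 counts its log2 fold change was -0.64, with every Bai1tm2b/tm2b library (21.6 to 31.2 CPM) below every control (32.1 to 56.4 CPM), but it was not called (SE 0.227, edgeR, adjusted p = 0.894). In the rounded TPM at P7 its values overlapped (9.25 ± 2.22 in controls against 10 ± 1.41 TPM, SD, n = 4). Each group held counts of listed genes of hair cells, neurons, supporting cells and Schwann cells, although the inner hair cell gene *Fgf8* had none in P22 controls, so a level here is one in mixed tissue: fewer cells of a type and less RNA per cell cannot be told apart.

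At P22, 2 of the 7 genes were called higher in Bai1tm2b/tm2b mice and none lower. *Ocm* was 1.63-fold and *Chrna10* 1.49-fold higher. Across all 15443 genes tested, 269 were called higher (1.74%) and 218 lower (1.41%). The median log2 fold change of the 7 genes was 0.58, beside 0.01 over all genes tested. Since the 7 were chosen with earlier results of these data known, these contrasts with all genes are descriptive and no independent test. In *Ocm*, *Chrna9*, *Chrna10* and *Sri*, 4 of the 7, every Bai1tm2b/tm2b library lay above every control library, a pattern found in 2312 of all genes tested (15%). When the libraries were scaled on hair cell genes instead of all genes, none of the 7 was called, as described below.

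*Ocm* encodes oncomodulin, a calcium-binding protein of the parvalbumin family that is abundant in outer hair cells. The gene lies on GRCm38 chr5:144019804-144026670 on the minus strand, with 733 exonic bases in GENCODE. The 3 control libraries at P22 held 75.6, 79.1 and 84.1 CPM, and the Bai1tm2b/tm2b libraries held 125, 127 and 135 CPM. The groups stood well apart, with 2465 to 2868 counts a library in controls and 4609 to 4847 in Bai1tm2b/tm2b. The log2 fold change was 0.70 (SE 0.0631, edgeR, adjusted p = 0.000547). Each of the 6 fits that left out a library kept the call.

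*Chrna10* encodes the α10 subunit, the partner of α9 in the receptor that receives the efferent signal. It lies on chr7:102111266-102116828 on the minus strand. Control libraries at P22 held 13.9, 13.7 and 13.3 CPM, and Bai1tm2b/tm2b libraries held 17.6, 21.3 and 21.8 CPM. The lowest Bai1tm2b/tm2b library was thus above the highest control, and the spread was wider in Bai1tm2b/tm2b (SD 2.27 against 0.341 CPM). The log2 fold change was 0.58 (SE 0.101, edgeR, adjusted p = 0.00692). Of its exonic bases, 39.0% overlap *Art1* on the opposite strand, and whether the counting used strand is not given in the sources used here, so its level is uncertain by the reads the genes share. *Art1*, looked up after the *Chrna10* values were seen, ran the other way at P22, with 76 to 136 counts in controls and 27 to 50 in Bai1tm2b/tm2b.

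*Chrna9*, which encodes the α9 subunit, lies on chr5:65934921-65977326 on the plus strand. It was less abundant than its partner, with 3.93, 3.96 and 4.31 CPM in controls and 5.15, 5.47 and 5.83 CPM in Bai1tm2b/tm2b. The groups did not overlap, but the log2 fold change of 0.44 (SE 0.146) missed the threshold (edgeR, adjusted p = 0.0766). Per transcript length, *Chrna10* exceeded *Chrna9* in every group of counts, at 17.6 ± 0.408 against 4.55 ± 0.274 TPM in P22 controls (SD, n = 3) and 26.6 ± 3.42 against 6.26 ± 0.462 TPM in P22 Bai1tm2b/tm2b. In the rounded TPM at P7 the subunits overlapped in controls, at 9 ± 1.41 against 9.25 ± 0.957 TPM (SD, n = 4). In Bai1tm2b/tm2b *Chrna10* there exceeded *Chrna9* without overlap, at 10.8 ± 0.5 against 8.25 ± 0.957 TPM. The rounded TPM kept the authors' own length scaling, and the counts were scaled here by merged GENCODE exon length.

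The promoter sequences of both subunits and of *Ocm* are shown because the subunits form 1 receptor and *Ocm* and *Chrna10* were the genes called at P22. RefSeq promoters on GRCm38.p6 were found for 5 of the 7 genes. Each line gives the 120 bases upstream of the RefSeq start, 5′ to 3′ on the gene's strand, with matches to a searched motif in capitals.
Chrna9, chr5:65967004-65967123, plus strand: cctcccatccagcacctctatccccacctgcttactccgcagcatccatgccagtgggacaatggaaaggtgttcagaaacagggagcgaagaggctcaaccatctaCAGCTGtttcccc
Chrna10, chr7:102116714-102116833, minus strand: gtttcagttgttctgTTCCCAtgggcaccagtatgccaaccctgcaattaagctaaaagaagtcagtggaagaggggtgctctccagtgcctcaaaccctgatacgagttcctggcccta
Ocm, chr5:144050610-144050729, minus strand: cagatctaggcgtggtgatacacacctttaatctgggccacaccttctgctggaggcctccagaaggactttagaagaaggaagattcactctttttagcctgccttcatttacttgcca
The motifs searched in the 250 bases before the start were the E-box CAGCTG, the TATA box TATAAA and the sequence TGGGAA, each on both strands. *Chrna9* held CAGCTG 13 bases before its start. *Chrna10* held TGGGAA 105 and 187 bases before its start, the nearer of which is printed above on the opposite strand. *Sri* held TGGGAA 30 bases and *Slc26a5* 149 bases before the start, and *Ocm* held none of the 3 motifs. Over 32851 RefSeq promoters, 13.0% held CAGCTG, 12.4% TATAAA and 21.6% TGGGAA in the same window. The RefSeq start of *Ocm* lies upstream of the GENCODE gene, and those of *Chrna9* and *Chrna10* lie inside theirs, so that the printed *Chrna9* bases and most of the printed *Chrna10* bases, marked motifs included, fall within the GENCODE genes, and the annotated starts of these genes differ between sources.

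*Slc26a5* encodes prestin and lies on chr5:21810655-21865604 on the minus strand. Its P22 control libraries held 19.8, 15.3 and 26.4 CPM, and Bai1tm2b/tm2b libraries held 22.9, 37.6 and 33.9 CPM. One Bai1tm2b/tm2b library was below the highest control, so the groups overlapped. Its log2 fold change of 0.63 was below the 0.70 of *Ocm*, the SE was 0.203, and it was not called (edgeR, adjusted p = 0.0702). Without the highest control library, replicate 3, it was called (0.85, adjusted p = 0.0391), as it was without the lowest Bai1tm2b/tm2b library, replicate 1 (0.82, adjusted p = 0.0240). Over all its alternatives the adjusted p ran from 0.0240 to 0.385.

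*Sri* encodes sorcin, a calcium-binding protein known for regulating ryanodine receptors, and lies on chr5:8046078-8069379 on the plus strand. Control libraries held 69.9, 68.4 and 67.9 CPM at P22, and Bai1tm2b/tm2b libraries held 79.0, 81.5 and 80.0 CPM. These were the tightest groups among the 7 genes, with coefficients of variation of 1.52% and 1.59%, beside 27.3% and 24.3% for *Slc26a5*. The log2 fold change of 0.23 (SE 0.0551) had an adjusted p of 0.0243 with edgeR and was under the fold limit, so it was not called.

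*Lmod3* encodes leiomodin-3, an actin filament nucleator best known from muscle thin filaments, and lies on chr6:97238534-97252759 on the minus strand. At P22 it had only 29, 62 and 43 counts in controls and 99, 100 and 64 in Bai1tm2b/tm2b. The groups overlapped by 1 library on each side, at 1.37 ± 0.537 against 2.37 ± 0.510 CPM (SD, n = 3). The log2 fold change was 0.81 with an SE of 0.311 and was not called (edgeR, adjusted p = 0.116). It was called without control replicate 2 (1.14, adjusted p = 0.0390), and over its alternatives the adjusted p ran from 0.0390 to 0.386.

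*Rapsn* encodes rapsyn, which clusters nicotinic receptors at the neuromuscular junction, and lies on chr2:91035620-91045729 on the plus strand. It was the single gene of the 7 with a fitted difference near 0 at P22. Controls held 11.1, 13.3 and 13.0 CPM and Bai1tm2b/tm2b libraries 13.0, 10.5 and 13.5 CPM. The groups overlapped fully (log2 fold change -0.02, SE 0.125, edgeR, adjusted p = 0.949).

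With 3 libraries a group the exact two-sided permutation test on a single gene cannot give a p below 0.1, which was its value for *Ocm*, *Chrna9*, *Chrna10* and *Sri*.

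**Figure D1:**
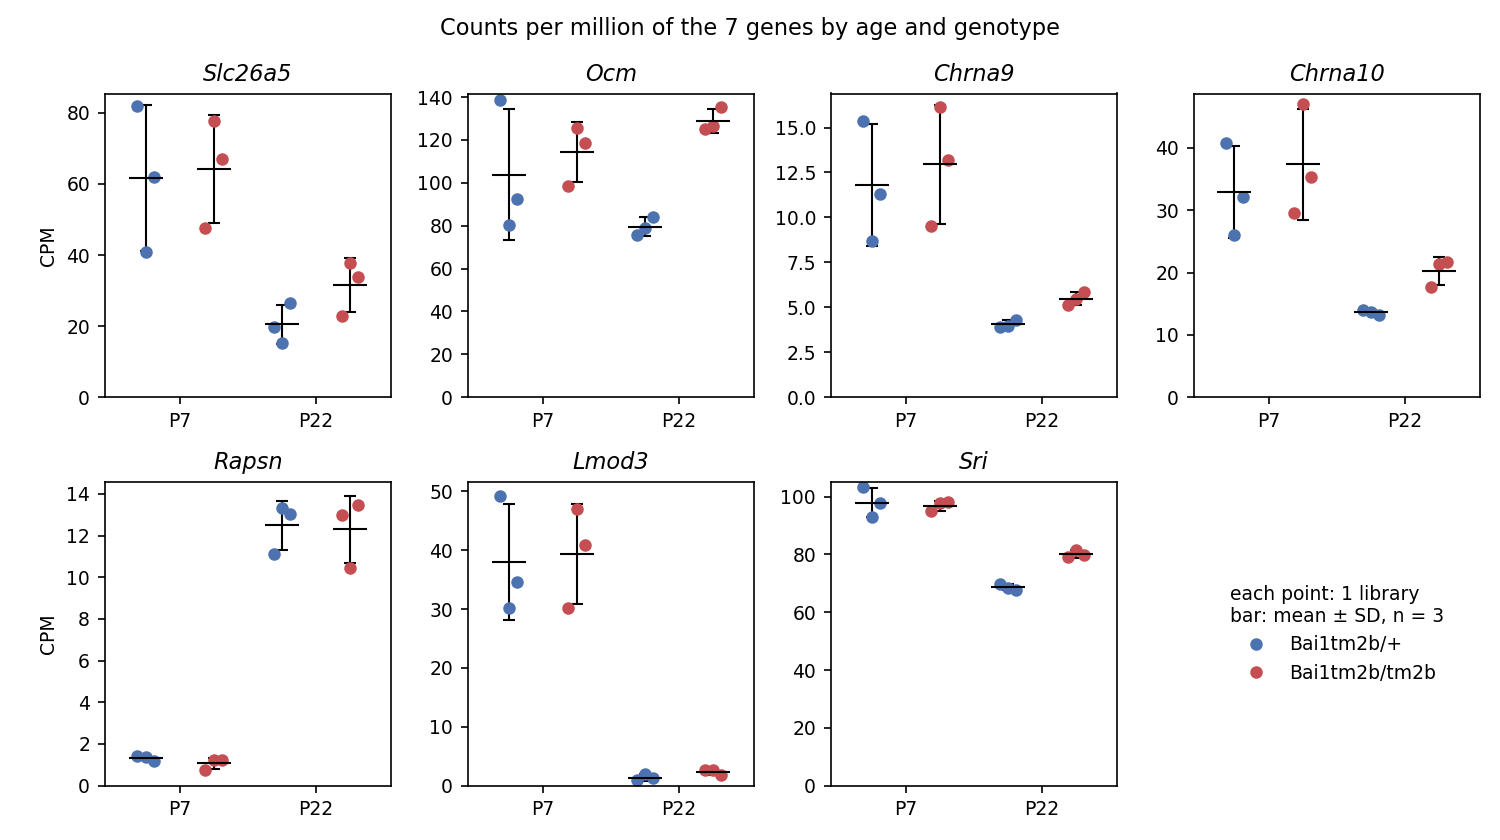
CPM of each gene in the 12 libraries in counts, by age and genotype; points are libraries and bars the mean ± SD of 3. At P22 *Ocm*, *Chrna9*, *Chrna10* and *Sri* show no overlap between genotypes, and between ages *Lmod3* drops while *Rapsn* climbs from near 1.20 to 12.4 CPM.

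Other hair cell genes were also higher in Bai1tm2b/tm2b at P22. Of 18 genes shared by inner and outer hair cells, 3 were called higher and none lower, with a list median of 0.41. They were *Espn*, an actin-bundling protein of stereocilia (0.99, from 14.2 to 27.9 CPM), *Barhl1*, a hair cell transcription factor (0.92), and *Myo15*, the myosin that elongates stereocilia (0.62). Of the 3 inner hair cell genes tested 1 was called higher, *Otof*, which is needed for transmitter release from inner hair cells (0.54, from 88.3 to 128 CPM). None of the 8 other outer hair cell genes tested was called in either direction, with a list median of 0.19, although *Strc*, *Lbh* and *Aqp11* had adjusted p-values under 0.05 with edgeR and log2 fold changes of 0.45, 0.43 and 0.37, under the fold limit. The geometric mean of the 18 shared genes was 8.49 to 10.8 CPM in control libraries and 12 to 13.8 CPM in Bai1tm2b/tm2b, without overlap. As an alternative, the libraries were scaled on those 18 genes, which shifted the median across all genes tested by -0.46 on the log2 scale. *Ocm* then stood at 0.24 (SE 0.155, edgeR, adjusted p = 0.168) and *Chrna10* at 0.11 (SE 0.174, adjusted p = 0.588). Over all their alternatives the adjusted p ran from 1.17e-19 to 0.168 for *Ocm* and from 4.60e-05 to 0.588 for *Chrna10*. *Chrna9* stood at -0.02 and *Sri* at -0.23 under that scaling, and *Rapsn* at -0.48 (adjusted p = 0.0183, range over its alternatives 0.0183 to 0.967). None of the 7 was called under that scaling. It moves every gene by about the same amount, so a lower value for each of the 7 was fixed by its construction.

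**Figure D2:**
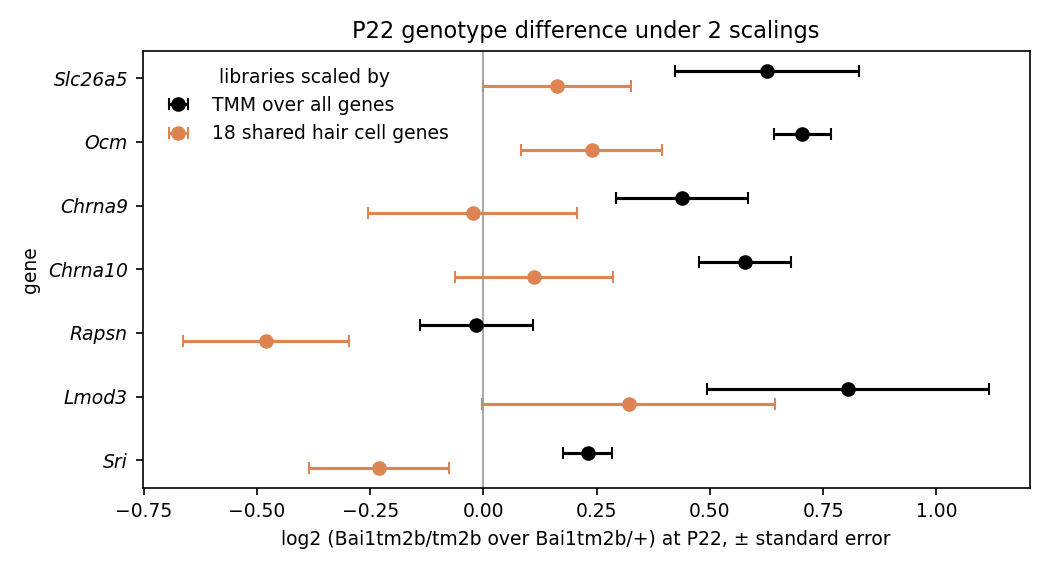
P22 log2 fold change of each gene with its standard error, with libraries scaled by TMM over all genes (black) or by 18 shared hair cell genes (orange). *Ocm* goes from 0.70 to 0.24, *Chrna10* from 0.58 to 0.11, and *Rapsn* from -0.02 to -0.48.

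The other genes of the efferent synapse were not called higher. None of the 6 other postsynaptic genes was called at P22 (list median 0.08). *Kcnn2*, the potassium channel opened by calcium behind the receptor, had a log2 fold change of -0.40 (SE 0.0860, edgeR, adjusted p = 0.0157), below the fold limit. *Kcnma1* was likewise lower and below that limit (-0.36, SE 0.102, edgeR, adjusted p = 0.0434). The other 4 of these genes had log2 fold changes above 0: *Agrn* (0.15), *Lrp4* (0.11), *Musk* (0.09) and *Dok7* (0.08). Of the acetylcholine genes 3 could be tested and 1 was called lower, *Ache*, the esterase that breaks acetylcholine down (-0.88, from 141 to 76.5 CPM, adjusted p = 0.000303). *Slc18a3*, the vesicular transporter of acetylcholine, had no counts at P22, and *Chat*, which makes acetylcholine, was too low to be tested at either age. The efferent fibres come from the brainstem, which was not part of the dissected tissue. The paper reported fibres labelled for the ChAT protein in both genotypes, in older mice. These low RNA levels therefore do not show the state of the efferent endings. Among 9 other nicotinic subunits tested 1 was called lower, *Chrna4* (-1.05, from 13.8 to 6.63 CPM, adjusted p = 0.000906), and the list median was -0.33. *Chrna6* and *Chrnb3*, singled out after their values were seen, had log2 fold changes of -4.13 and -4.15 (edgeR, adjusted p = 0.00954 and 0.00482). Their standard errors, 0.790 and 0.657, were above 0.5, and for that limit alone they were not called. Their means were at most 1.02 CPM in either group. None of 4 muscarinic receptors was called.

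Listed marker genes of other cell types were compared at P22 too. The summed level of 12 neuron genes was 14919 to 16955 CPM in controls and 11239 to 12805 CPM in Bai1tm2b/tm2b, with 1 gene called lower (*Nefh*, -0.52). *Nefh*, *Nefm*, *Snap25* and *Nefl* made up most of that sum, averaging 3987, 3528, 3044 and 2726 CPM in controls. Of the 12 genes, 10 had a log2 fold change below 0 and 2 above, with a median of -0.23. The summed level of 11 supporting cell genes was 2647 to 3062 CPM in controls and 3436 to 3877 CPM in Bai1tm2b/tm2b, where 4 were called higher, among them *Tectb*, a tectorial membrane protein (1.02), and 1 lower, *Prox1* (-0.59). For Schwann cell genes the sums were 21389 to 22633 CPM and 22364 to 26314 CPM, which overlapped, with 1 of 8 called higher and a median of 0.09. The part of these in the differences of the 7 genes was not tested. Skeletal muscle genes, listed because *Rapsn* and *Lmod3* are known from muscle, summed to 50.1 to 56.7 CPM in controls and 30.9 to 38 CPM in Bai1tm2b/tm2b. *Neb* and *Ttn* made up most of that sum, averaging 28.4 and 16.2 CPM in controls. Of 9 tested, 3 were called lower, *Mybpc2* (-2.15), *Ttn* (-0.97) and *Neb* (-0.53), while neither *Rapsn* nor *Lmod3* was called. The muscle markers *Acta1* and *Ckm* were at or below 0.656 and 0.246 CPM in every group mean, and *Myog* had no counts at P22.

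**Figure D3:**
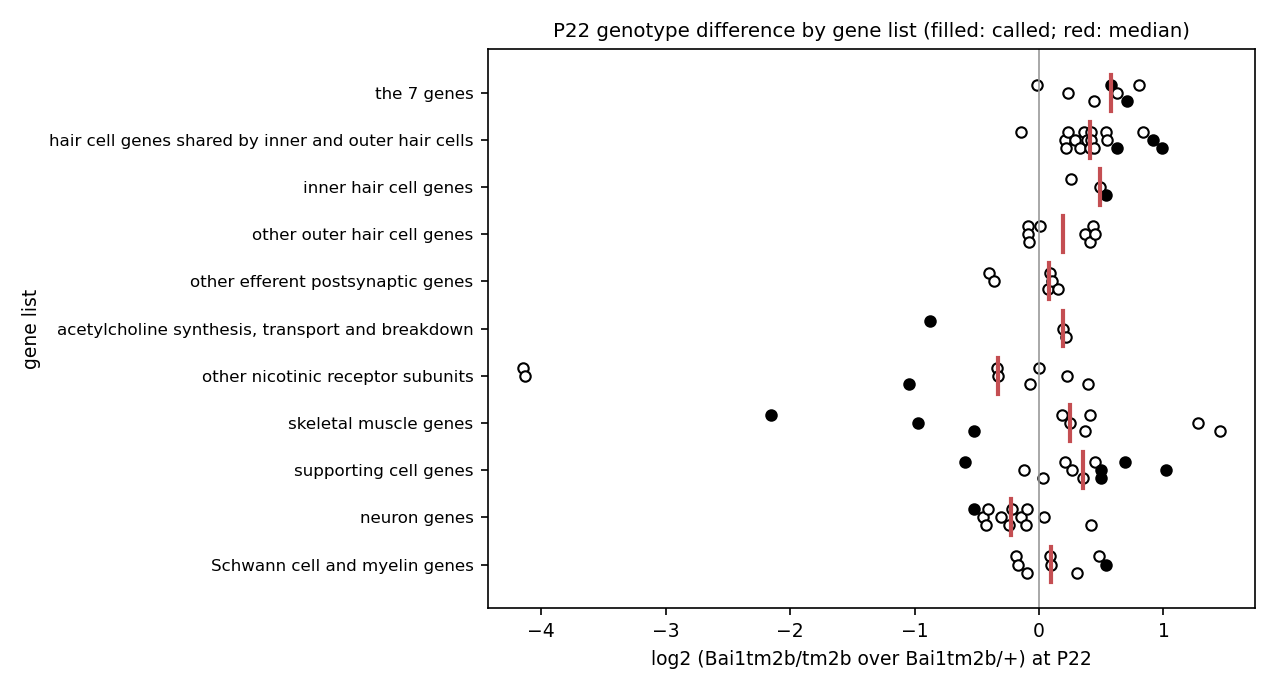
P22 log2 fold change of each tested gene by list; filled points were called and red lines are list medians. The 7 genes have a median of 0.58 and the shared hair cell genes 0.41, while the neuron genes (-0.23) and the other nicotinic subunits (-0.33) lie below 0.

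At P7 no genotype difference was called for any of the 7 genes in either set of libraries. In the counts edgeR called 0 of 16026 genes (0%), with 763 genes at an unadjusted p under 0.05 and a smallest adjusted p of 0.573; DESeq2 called 47 genes higher and 4 lower, none of them a member. All 7 genes overlapped between genotypes. *Ocm* held 138, 80.5 and 92.6 CPM in controls and 98.6, 125 and 119 CPM in Bai1tm2b/tm2b (log2 fold change 0.16, SE 0.201, edgeR, adjusted p = 0.919). *Slc26a5* held 81.8, 40.8 and 62.1 CPM in controls and 47.7, 77.9 and 67.1 CPM in Bai1tm2b/tm2b. Libraries of both groups were thus spread over the same range, wider than at P22. The log2 fold changes were 0.08 for *Slc26a5*, 0.16 for *Chrna9*, 0.20 for *Chrna10*, 0.07 for *Lmod3* and 0.01 for *Sri*. For *Rapsn* it was -0.30, on 32 to 87 counts a library.

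In the rounded TPM at P7, limma called 76 of 11740 genes higher (0.647%) and 17 lower (0.145%), and none was among the 7. *Ocm* held 326, 230, 424 and 347 TPM in controls and 168, 276, 346 and 146 TPM in Bai1tm2b/tm2b. The groups overlapped, although the lowest values were in Bai1tm2b/tm2b, and the log2 fold change was -0.67 (SE 0.283, limma, adjusted p = 0.126), opposite in sign to that in the P7 counts and at P22. Of the other genes tested, *Slc26a5* stood at -0.04, *Chrna9* at -0.25, *Chrna10* at 0.14, *Lmod3* at -0.22 and *Sri* at -0.14. *Rapsn* was under the limit of 5 TPM, at 2 or 3 TPM in every library, and was not tested across genes (exact permutation test, two-sided, p = 1). At this level a step of 1 TPM is the smallest difference these values can show.

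**Figure D4:**
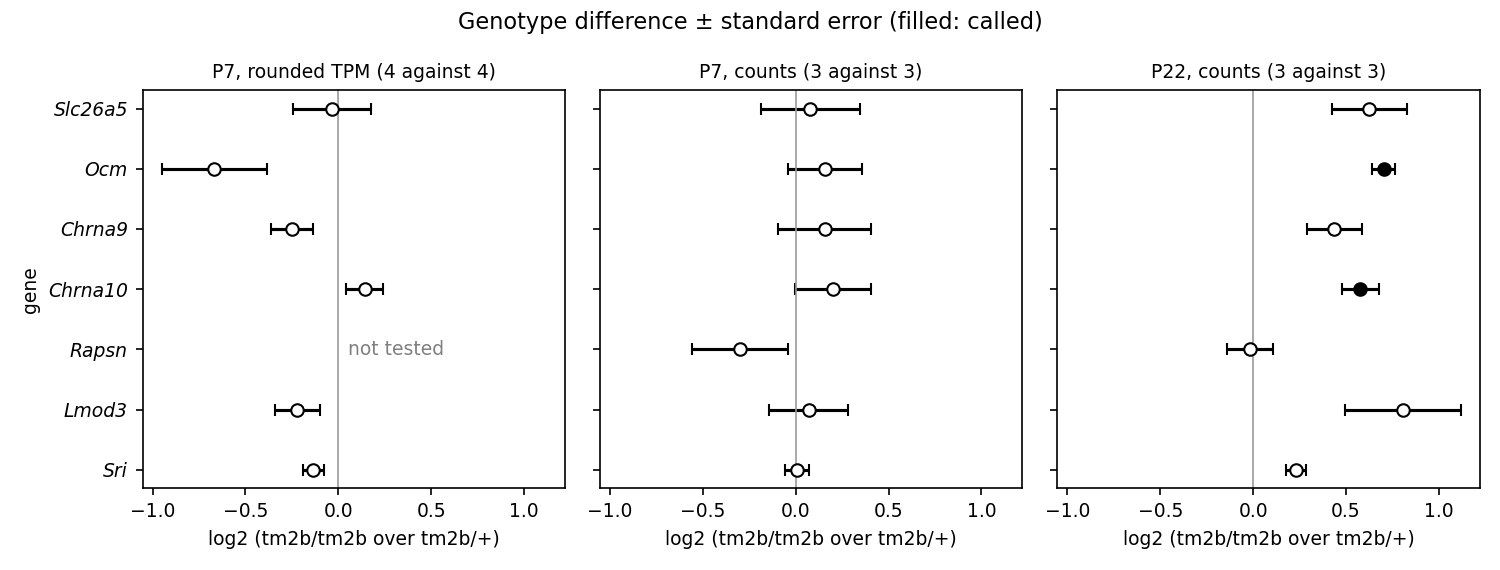
Log2 fold change of Bai1tm2b/tm2b over Bai1tm2b/+ with its standard error for each gene in the 3 sets of libraries; filled points were called. In the P22 panel *Ocm* (0.70) and *Chrna10* (0.58) are filled, and at P7 *Ocm* lies at -0.67 in the rounded TPM and at 0.16 in the counts.

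Whether the genotype difference changed with age was tested over the 12 libraries in counts. None of the 7 genes was called, beside 5 of 16314 genes tested (0.0306%). All 7 terms were above 0, that is, Bai1tm2b/tm2b minus control was larger at P22 than at P7, with a median of 0.39 beside 0.02 over all genes. For *Ocm* the term was 0.56 (SE 0.225, edgeR, adjusted p = 0.416) and for *Sri* 0.24 (SE 0.0769, adjusted p = 0.325). The call of *Ocm* and *Chrna10* at P22 and its absence at P7 is thus not shown to be a difference between ages. Scaled on the shared hair cell genes, the terms of *Chrna9* and *Sri* fell below 0.

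Between P7 and P22, in the libraries in counts, 6 of the 7 genes had a log2 fold change below 0 and 1, *Rapsn*, above 0. Of the 7, 4 were called lower at P22, 1 was called higher, and *Ocm* and *Sri* were not called. Over 16314 genes tested, 4226 were called higher (25.9%) and 4674 lower (28.7%), so calls were common among all genes. In 6 of the 7 genes the ages did not overlap, as in 10214 of all genes (62.6%). Age, batch and sequencing run cannot be told apart here, since each age in counts came from 1 batch.

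*Lmod3* had the largest change of the 7. It held 49.2, 30.2 and 34.6 CPM in P7 controls and 30.2, 46.9 and 40.8 CPM in P7 Bai1tm2b/tm2b. At P22 it held 0.890, 1.95 and 1.26 CPM in controls and 2.68, 2.65 and 1.79 CPM in Bai1tm2b/tm2b. Every P22 library was far below every P7 library, with a log2 fold change of -4.42 (SE 0.199, edgeR, adjusted p = 5.93e-10), or 21.4-fold lower.

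*Rapsn* went the other way. Its P7 libraries held 1.40, 1.39 and 1.20 CPM in controls and 0.757, 1.22 and 1.22 CPM in Bai1tm2b/tm2b, against 10.5 to 13.5 CPM over the 6 libraries at P22. The log2 fold change was 3.38 (SE 0.131, edgeR, adjusted p = 1.92e-10), or 10.4-fold higher. These 2 changes, and their direction, held under each scaling tried (-4.76 to -3.35 for *Lmod3* and 3.09 to 4.41 for *Rapsn* over all alternatives).

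The receptor subunits and prestin were lower at P22 by smaller amounts. The log2 fold change was -1.38 for *Chrna9* (SE 0.153, edgeR, adjusted p = 2.43e-06), -1.08 for *Chrna10* (SE 0.126, adjusted p = 4.21e-06) and -1.31 for *Slc26a5* (SE 0.197, adjusted p = 4.41e-05). *Sri* stood at -0.39 (SE 0.0385, adjusted p = 7.61e-07), without overlap but under the fold limit, and *Ocm* at -0.10, with overlap (SE 0.113, adjusted p = 0.408). The shared hair cell genes were lower at P22 as well, with 13 of 18 called lower, 2 higher and a median of -0.79; *Ptprq* (-2.83), *Rbm24* (-2.75), *Grxcr1* (-2.47) and *Lhx3* (-1.94) had the largest changes. Scaling on these 18 genes raised the median of all genes by 1.01, and on that scale *Slc26a5* (-0.26), *Chrna9* (-0.33) and *Chrna10* (-0.03) were no longer called, with adjusted p of 0.111, 0.0584 and 0.857, the highest over their alternatives. *Ocm* (0.95) and *Sri* (0.63) were then called higher. Scaling by library size alone shifted the median by -0.29 and moved the split of all genes to 2885 higher and 6471 lower, against 10860 higher and 1378 lower on hair cell genes.

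Of 9 other outer hair cell genes, 8 were called lower at P22 and 1 higher, with a median of -1.40. The largest changes were in *Insm1*, a transcription factor of early outer hair cells (-2.61), and *Calb1*, a calcium buffer (-2.12). *Strip2* (-1.75) and *Ikzf2*, an outer hair cell transcription factor (-1.62), followed. *Insm1* was very low, averaging 0.540 CPM at P7 and 0.0868 CPM at P22. *Car7*, a carbonic anhydrase, was the one called higher (0.82). Among 6 other postsynaptic genes 2 were called higher and 2 lower. *Dok7*, an activator of the MuSK kinase that works with rapsyn at the neuromuscular junction (1.46), and *Kcnn2* (1.15) were higher, while *Agrn* (-1.46) and *Lrp4* (-0.97), the ligand and receptor upstream of MuSK, were lower. Of 12 other nicotinic subunits tested, 7 were called lower and 3 higher. *Chrna3* (-8.04), *Chrnb4* (-5.57) and *Chrna5* (-3.81) led the lower ones and *Chrnb2* (2.34) the higher. *Chrna5* averaged only 0.662 CPM at P7 and 0.0600 CPM at P22. *Ache* was called higher (2.34), and *Slc5a7*, the choline transporter (-4.18), and *Bche* (-1.93) lower. Of 15 skeletal muscle genes tested, 4 were called lower and 3 higher, with *Ryr1* at -6.11, *Neb* at 4.61, *Myh8* at -3.99 and *Mybpc2* at 2.39. Of 12 listed neuron genes 11 were called higher in the tissue (median 2.32), and of 11 supporting cell genes 7 were called lower and 3 higher (median -1.70).

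The rounded TPM gave a different starting level at P7 for several of these genes. The values below are per transcript length, were normalized separately and are set side by side without a test. Counts were divided here by merged GENCODE exon length, whereas the rounded TPM kept the authors' own length scaling. The sets at P7 thus differ in measure as well as in batch, and these cannot be told apart. *Slc26a5* stood at 86.0 ± 30.7 TPM in P7 controls from counts (SD, n = 3), at 12.8 ± 2.5 in P7 controls from rounded TPM (SD, n = 4) and at 22.6 ± 6.38 in P22 controls. Its P22 level was thus below the first P7 level and above the second. *Chrna10* showed the same order, with 53.7 ± 13.4, 9 ± 1.41 and 17.6 ± 0.408 TPM. For *Lmod3* the levels were 73.5 ± 21.0, 18 ± 2.45 and 2.08 ± 0.796 TPM, so P22 was lowest against both, and for *Rapsn* they were 3.15 ± 0.285, 2.25 ± 0.5 and 23.5 ± 2.13 TPM, so P22 was highest against both. *Chrna9* was lowest at P22 (16.7 ± 5.20, 9.25 ± 0.957 and 4.55 ± 0.274 TPM), as was *Sri* (86.2 ± 6.74, 87.5 ± 3 and 47.9 ± 0.926 TPM). *Ocm* stood at 608 ± 193, 332 ± 79.9 and 368 ± 21.5 TPM. The 18 shared hair cell genes, summed per length, ran from 438 to 635 TPM in the P7 controls in counts, from 267 to 304 in those in rounded TPM and from 277 to 299 at P22, and their part in these orders was not tested.

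**Figure D5:**
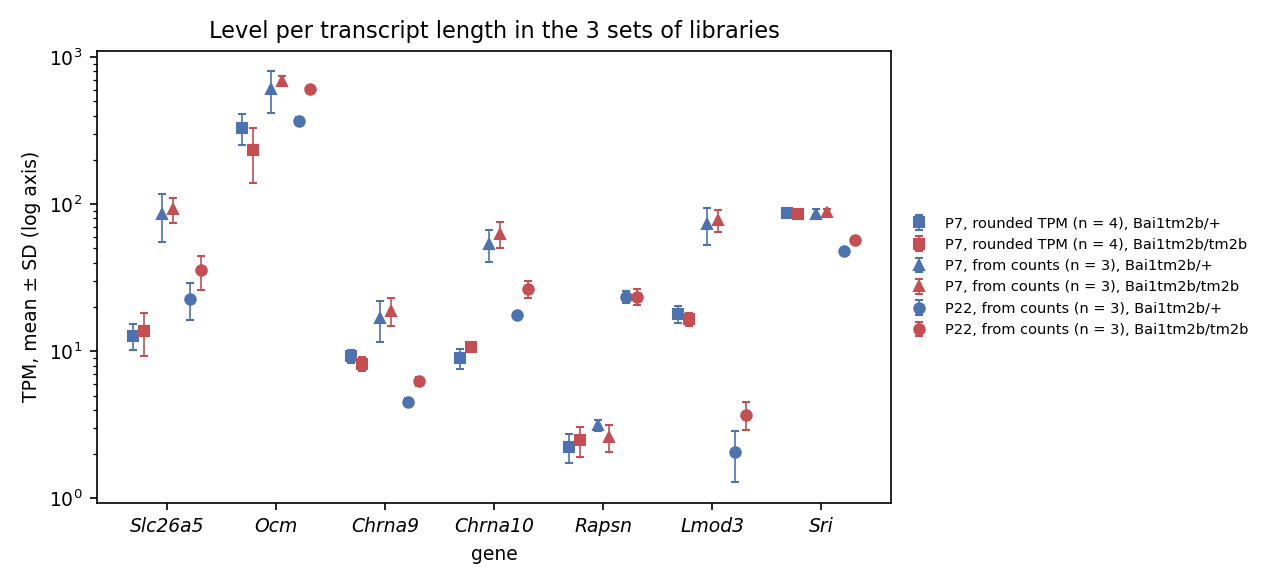
Level per transcript length (TPM, mean ± SD, log axis) of each gene in the 3 sets of libraries and both genotypes. *Slc26a5* and *Chrna10* at P22 lie between the P7 levels from counts and from rounded TPM, which differ in batch and in length scaling. *Lmod3* is lowest and *Rapsn* highest at P22 against both.

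*Ocm* was the most abundant of the 7 genes per length in all 6 groups, at percentile 97.4 or higher among all genes. In P22 controls the order below it was *Sri* (47.9 TPM), *Rapsn* (23.5), *Slc26a5* (22.6), *Chrna10* (17.6), *Chrna9* (4.55) and *Lmod3* (2.08). *Rapsn*, *Slc26a5* and *Chrna10* were neighbours within 1 SD of *Slc26a5*, while the steps from *Ocm* to *Sri*, from *Sri* to *Rapsn*, and from *Chrna10* down to *Chrna9* and *Lmod3* were each larger than the SDs beside them.

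How alike the genes were from library to library was described over the 12 libraries in counts after the mean of each age was subtracted. The genotype groups, depth and dissection are shared by these points. *Chrna9*, *Rapsn* and *Lmod3* averaged under 5 CPM at P7 or P22 and were left out. Pearson's r was 0.92 for *Ocm* with *Chrna10*, 0.91 for *Ocm* with *Sri* and 0.85 for *Slc26a5* with *Chrna10*. It was 0.84 for *Chrna10* with *Sri*, 0.82 for *Slc26a5* with *Ocm* and 0.74 for *Slc26a5* with *Sri*. Among 11655 genes with a mean of at least 5 CPM at each age, those most like *Chrna10* were *Veph1* (0.99), *Otof* (0.98), *Tomt* (0.97), *Mtmr11* (0.97) and *Liph* (0.97). Those most like *Slc26a5* were *Crhr1* (0.97), *Ppp2r1b* (0.96), *Grxcr2* (0.94), *Slitrk6* (0.94) and *Egfl6* (0.92).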

How the data were processed

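Per the labels, each library was poly(A)-selected RNA sequenced as read pairs, with RNA integrity above 9.1. The authors mapped reads to mm10 and quantified genes with the nf-core pipeline (STAR and Salmon). They deposited estimated counts per gene (12 libraries) and, for the first P7 batch, TPM rounded to whole numbers, treated here as a score (8 libraries). Of all 24411 rows, those that passed a filter were fitted. The estimated counts were fitted with edgeR 4.0.16 (quasi-likelihood, filterByExpr, TMM), with DESeq2 1.42.0 as an alternative. For genes averaging 5 TPM or more, log2(TMM-scaled TPM + 1) was fitted with limma 3.58.1. All fits ran in R 4.3.3. P-values were Benjamini-Hochberg adjusted over all genes tested. Per-length levels of the libraries in counts used merged GENCODE exons (23350 rows matched), and those in rounded TPM were taken as the authors scaled them. The labels call the libraries replicates, each a pool of mice. Named genes were the 7 genes, at most the 4 largest called genes of each list and the 5 genes most alike *Slc26a5* and *Chrna10*; exceptions are marked. The members and lists were chosen with earlier results of these data known. The fits were tested on simulated data. Alternatives covered scaling, filters, pseudocounts, tools, left-out libraries and a replicate block.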

Additional observations from a re-analysis of the deposited data

Results flagged for a closer look

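In 3 of the 14 sets of a gene and a genotype in the rounded TPM at P7, 1 library stood apart from the other 3 by Dixon's criterion. These were the groups with 4 libraries. In each of the 3 sets the other 3 libraries held the same whole number, which meets the criterion whatever the gap. Its usual rate of about 1 of 20 sets by chance therefore does not apply here. *Chrna10* was at 10 TPM in Bai1tm2b/tm2b replicate 4 and at 11 TPM in the other libraries of that genotype. *Rapsn* was at 3 TPM in control replicate 3 and at 2 TPM in the other controls. *Sri* was at 92 TPM in control replicate 2 and at 86 TPM in the other controls. The first 2 gaps are 1 unit of the rounding.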

How the results depend on the processing

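Of 579 recomputed values, 537 kept their direction and side of the threshold. Scaling on 18 shared hair cell genes took the number of the 7 genes called at P22 from 2 to 0, and turned *Chrna9* (-0.024) and *Sri* (-0.23) at P22, *Slc26a5* (-0.073), *Chrna9* (-0.010), *Lmod3* (-0.094) and *Sri* (-0.15) in the P7 counts, *Ocm* (0.95) and *Sri* (0.63) between ages, and *Chrna9* (-0.014) and *Sri* (-0.076) in the term of genotype by age. *Rapsn* at P22 turned to 0.046 with library-size scaling, *Slc26a5* in the rounded TPM to 0.068 with TPM as deposited, and *Ocm* between ages to 0.16 in Bai1tm2b/tm2b libraries alone. Without single libraries, the range was -0.092 to 0.094 for *Rapsn* at P22; in the P7 counts -0.15 to 0.35 for *Slc26a5*, -0.00049 to 0.43 for *Ocm*, -0.030 to 0.41 for *Chrna9*, -0.076 to 0.31 for *Lmod3* and -0.033 to 0.061 for *Sri*, each turned without control replicate 6; -0.18 to 0.15 for *Slc26a5* in the rounded TPM; and -0.18 to 0.028 for *Ocm* between ages, turned without P7 control replicate 5. *Chrna9* at P22 was called with library-size scaling (0.50, edgeR, adjusted p = 0.0479; 0.0479 to 0.933 over its alternatives), and *Slc26a5* without a filter (0.62, adjusted p = 0.0467).

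Counts over all genes moved more. At P22 (269 higher, 218 lower) they were 399 and 134 by library size, 53 and 5577 on hair cell genes, 779 and 1125 by adjusted p alone, and 108 and 162, 160 and 125, and 117 and 165 without control replicate 1, control replicate 3 and Bai1tm2b/tm2b replicate 2. In the P7 counts (0 called) DESeq2 called 47 higher and 4 lower, and hair cell scaling 14 and 5. The rounded TPM (76 and 17) gave 284 and 9 as deposited, 541 and 366 by adjusted p alone, 17 and 38 on hair cell genes, 0 with a limit of 1 TPM or no filter, 0 without any of 6 libraries in turn, and 271 and 62 without Bai1tm2b/tm2b replicate 1. For genotype by age, DESeq2 called 33 and 90, hair cell scaling 0 and 9, and the fit without P7 Bai1tm2b/tm2b replicate 5 called 40 and 61.

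Deviations of same-numbered libraries had r = 0.060, -0.0019 and 0.051 at P22, and from -0.23 to 0.069 in the P7 sets. With so few libraries these values cannot show whether the numbers pair the libraries, and the main fits did not pair them. With a replicate block 2 of the 7 genes were still called at P22. None was called in the P7 counts, the rounded TPM and the term of genotype by age. The P22 calls over all genes went to 261 and 205, and those in the rounded TPM to 0. The cause of these changes was not tested. *Lmod3* at P22 rests on 29 to 100 counts a library.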
